A study of Mus musculus with 2 samples.

Results

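The activin, inhibin and follistatin genes are 10 genes: the subunits Inha, Inhba and Inhbb, the binding proteins Fst and Fstl3, the type I receptors Acvr1 and Acvr1b, the type II receptors Acvr2a and Acvr2b, and the co-receptor Tgfbr3. They were chosen by symbol, and all 10 were found among the 43346 Ensembl genes of the deposited tables. The tissue was the adrenal gland of a female C57BL/6J mouse of 10 weeks, with no treatment or engineered allele named in the labels. Polyadenylated RNA was read in 2 libraries, replicate 2 and replicate 1, which the labels describe as technical replicates of 1 biological sample. Per the labels, replicate 2 was prepared later than replicate 1 and was no part of the original publication. Library and date cannot be told apart, and every SD below is a technical spread over n = 2 libraries that says nothing of other animals.

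Activins are pairs of beta subunits, betaA from Inhba and betaB from Inhbb, and inhibins pair a beta subunit with the alpha subunit from Inha. Activin binds a type II receptor, which activates a type I receptor such as ACVR1B, and the signal passes to SMAD transcription factors. Follistatin (Fst) and its relative FSTL3 bind activin and keep it from its receptors, and inhibin competes for type II receptors with the help of betaglycan, the product of Tgfbr3. Inhibin is best known as a gonadal hormone that restrains follicle-stimulating hormone. In mice the alpha subunit is also made in the adrenal cortex, and its loss leads to adrenocortical tumours after gonadectomy.

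The type II receptors are close relatives, yet their coding sequences differ in GC content, the share of G and C bases, a property against which the library ratios are set below. The 120 coding bases in which they were most alike are printed in lower case, with capitals at the 26 positions where they differ. Both are taken from GENCODE M21 on GRCm38, 5′ to 3′ on the coding strand, at coding bases 1051 to 1170 of Acvr2a and 1120 to 1239 of Acvr2b.
Acvr2a: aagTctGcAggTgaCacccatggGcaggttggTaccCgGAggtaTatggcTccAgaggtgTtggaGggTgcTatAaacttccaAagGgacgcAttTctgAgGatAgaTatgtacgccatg
Acvr2b: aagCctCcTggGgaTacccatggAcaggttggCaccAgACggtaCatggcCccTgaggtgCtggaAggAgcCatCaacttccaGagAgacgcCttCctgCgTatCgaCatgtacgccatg
At these 26 positions Acvr2a had G or C at 8 and Acvr2b at 16. Over the 1536 aligned coding bases, 64.0% were identical. Acvr2b had G or C where Acvr2a had A or T at 347 positions, and the opposite held at 83. At the last position of the codons GC content was 39.6% in Acvr2a and 77.8% in Acvr2b.

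The beta subunits showed a smaller contrast in the same direction. Their most alike stretch covers coding bases 907 to 1026 of Inhba and 871 to 990 of Inhbb, with capitals at the 34 positions that differ.
Inhba: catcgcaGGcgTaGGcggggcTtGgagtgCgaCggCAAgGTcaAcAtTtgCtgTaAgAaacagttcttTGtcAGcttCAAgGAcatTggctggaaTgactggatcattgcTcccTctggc
Inhbb: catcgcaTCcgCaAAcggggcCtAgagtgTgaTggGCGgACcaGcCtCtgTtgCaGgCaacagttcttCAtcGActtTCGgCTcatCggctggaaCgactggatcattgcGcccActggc
Inhba had G or C at 14 of these positions and Inhbb at 21. The aligned coding bases were 58.5% identical, and GC content at the last codon position was 67.5% in Inhba and 82.0% in Inhbb.

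The libraries differed in make-up before any member was considered. The total was 17376660 counts in replicate 2 and 28267651 in replicate 1. Mitochondrial genes and their nuclear copies took 15.3% of the counts in replicate 2 and 53.1% in replicate 1, which left 14716667 and 13260900 nuclear counts. All 7 adrenal cortex markers were detected in both libraries, at a summed level of 26813 TPM in replicate 2 and 7211 TPM in replicate 1. TPM is a level per transcript length, scaled so that all genes of a library reach 1 fixed sum. The 7 chromaffin cell markers, 5 detected in both libraries, summed to 4516 TPM in replicate 2 and 344 TPM in replicate 1. Rescaled over nuclear genes, the cortex sums were 43500 and 41219 TPM and the chromaffin sums 7327 and 1968 TPM. Markers of adipocytes (5 of 6 detected in both libraries; 5307 and 2660 nuclear TPM), macrophages (1 of 5; 275 and 23.9) and skeletal muscle (2 of 4; 411 and 26.6) had larger nuclear sums in replicate 2. Endothelium (5 of 6) summed to 644 nuclear TPM in replicate 2 and 554 in replicate 1, and capsule and stroma (6 of 7) to 459 in replicate 2 and 835 in replicate 1. The part of these markers in the results was not tested. In bulk tissue, fewer cells of a type and less RNA per cell cannot be told apart, and both libraries come from 1 sample. How the marker calls changed when a trend with GC content was removed is given below.

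By mean TPM over the libraries, the co-receptor Tgfbr3 and the receptors Acvr1 and Acvr2a stood highest, and Inhba, Acvr2b, Inhbb and Fst stood lowest. The order differed between the libraries: in replicate 2 Fstl3 and Inha were above Acvr2a. Members reached 1 TPM in 9 cases in replicate 2 and in 5 cases in replicate 1, and Fst, Fstl3, Acvr1, Acvr2a and Tgfbr3 did so in both libraries. The 10 members summed to 141.72 TPM in replicate 2 and 50.79 TPM in replicate 1, and Tgfbr3 alone made up 55.7% and 57.4% of that sum.

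**Figure D1:**
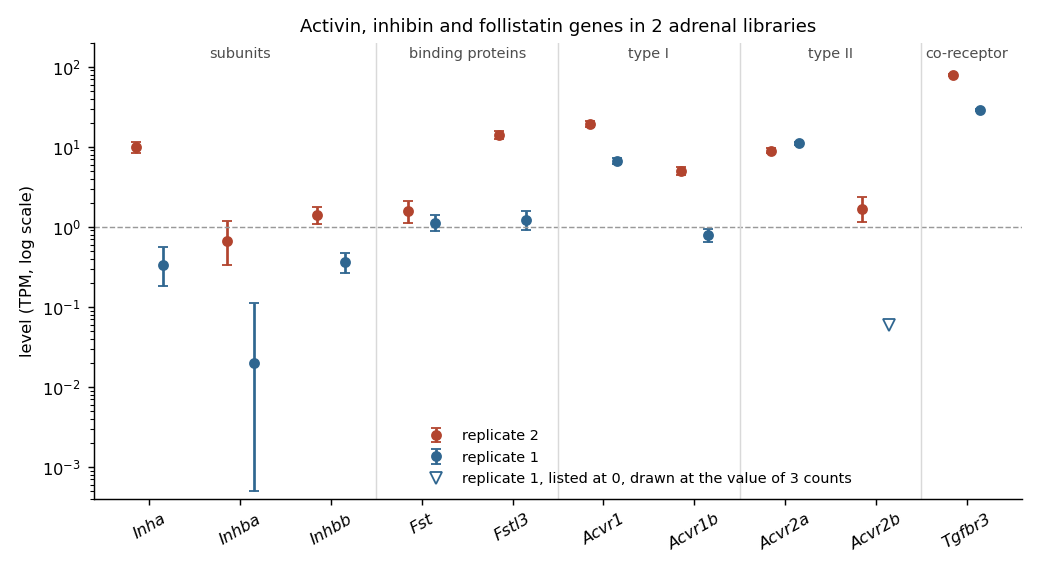
Level of each member in TPM on a log axis, with replicate 2 left of replicate 1 and bars for the 95% Poisson counting interval. Tgfbr3 is highest in both libraries at 78.97 and 29.16 TPM, and the open triangle marks Acvr2b, which has a count of 0 in replicate 1 and is drawn at the level of 3 counts. The dashed line marks 1 TPM.

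Inha, which encodes the alpha subunit shared by all inhibins, has no overlapping neighbour in the annotation (chr1:75507077-75510366, plus strand). It had 158 counts and 9.85 TPM in replicate 2, and 14 counts and 0.33 TPM in replicate 1, a mean of 5.09 ± 6.73 TPM (SD, n = 2). Counting intervals were 8.37 to 11.5 TPM in replicate 2 and 0.180 to 0.554 TPM in replicate 1, so the libraries stood far apart. Markers of the ovary, the classical source of this subunit, were near 0. None of 8 ovary markers reached 1 TPM in both libraries, they summed to 3.17 TPM in replicate 2 and 0.72 TPM in replicate 1, and Fshr, Cyp19a1 and Zp3 had a count of 0 in both. The highest was Oosp1, an oocyte gene, at 2.10 TPM in replicate 2 and 0.58 TPM in replicate 1.

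The beta subunits were scarcer. Inhba (chr13:16011851-16031621, plus strand), which encodes betaA, had 11 counts and 0.66 TPM in replicate 2 and 1 count and 0.02 TPM in replicate 1, a mean of 0.340 ± 0.453 TPM. All of its counts were placed on a transcript of 1529 bases and none on one of 1957 bases. In GENCODE M21 the exons of Inhba cover 6390 bases, and whether reads from the rest were missed was not tested. Inhbb (chr1:119415465-119422248, minus strand), which encodes betaB, had 71 counts and 1.40 TPM in replicate 2 and 49 counts and 0.36 TPM in replicate 1, a mean of 0.880 ± 0.735 TPM. Inhbb was the more abundant beta subunit in both libraries, with an Inhbb to Inhba ratio of TPM of 2.12 in replicate 2 (95% exact interval 1.12 to 4.44) and 18.0 in replicate 1 (3.08 to 725). The second interval is wide because it rests on 1 count of Inhba.

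Whether alpha or betaB RNA prevailed depended on the library. The ratio of Inha to Inhbb was 7.04 in replicate 2 (5.28 to 9.45) and 0.917 in replicate 1 (0.467 to 1.69), an interval that includes equality. Inha exceeded Inhba by 14.9 times in replicate 2 (8.12 to 30.5) and 16.5 times in replicate 1 (2.51 to 698). These intervals cover counting error only, like all intervals and floors given here.

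The binding proteins differed from each other in the same library-dependent way. Fst (chr13:114452290-114458951, minus strand) had 42 counts and 1.57 TPM in replicate 2 and 80 counts and 1.12 TPM in replicate 1, a mean of 1.35 ± 0.318 TPM. Fstl3 (chr10:79777272-79782630, plus strand) had 295 counts and 14.16 TPM in replicate 2 and 57 counts and 1.20 TPM in replicate 1, a mean of 7.68 ± 9.16 TPM. Fst therefore stood at 0.111 of the Fstl3 level in replicate 2 (0.0783 to 0.154) and at 0.933 in replicate 1 (0.656 to 1.33). Exons of Fstl3 share 1157 of 2445 bases with Prss57 on the opposite strand, and whether the counting used strand is not given in the sources used here. Prss57 itself had 4 counts in replicate 2 and 0 in replicate 1. Fst shares 115 exon bases with Gm47040 on the opposite strand.

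Type I receptors were present in both libraries. Acvr1 (chr2:58388644-58567157, minus strand), best known as a receptor for bone morphogenetic proteins, had 601 counts and 19.45 TPM in replicate 2 and 574 counts and 6.69 TPM in replicate 1, a mean of 13.1 ± 9.02 TPM. Acvr1b (chr15:101174067-101213684, plus strand), the main type I receptor of activin, had 264 counts and 5.01 TPM in replicate 2 and 111 counts and 0.79 TPM in replicate 1, a mean of 2.90 ± 2.98 TPM. Acvr1 exceeded Acvr1b by 3.88 times in replicate 2 (3.35 to 4.5) and 8.47 times in replicate 1 (6.90 to 10.5).

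Among type II receptors Acvr2a had the higher TPM in both libraries. Acvr2a (chr2:48814109-48903269, plus strand) had 615 counts and 8.96 TPM in replicate 2 and 2031 counts and 11.12 TPM in replicate 1, a mean of 10.0 ± 1.53 TPM. It was the one member with a lower TPM in replicate 2. Acvr2b (chr9:119402118-119434995, plus strand) had 32 counts and 1.69 TPM in replicate 2 and a count of 0 in replicate 1. There the floor of 3 counts equals 0.0593 TPM, and the deposited interval reached 0.0920 TPM. The ratio of Acvr2a to Acvr2b was 5.30 in replicate 2 (3.72 to 7.82) and 188 in replicate 1 with Acvr2b taken at 3 counts. No ratio of a member pair was adjusted for GC content, which was 40.4% in Acvr2a and 59.0% in Acvr2b. Acvr2a shares 446 exon bases with Orc4 on the opposite strand, and Orc4 had 663 counts in replicate 2 and 2570 in replicate 1.

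Tgfbr3 (chr5:107106570-107289629, minus strand), which encodes the betaglycan co-receptor for inhibin and TGF-beta, had 5790 counts and 78.97 TPM in replicate 2 and 5694 counts and 29.16 TPM in replicate 1, a mean of 54.1 ± 35.2 TPM. Among nuclear genes ordered by TPM it ranked 1425 in replicate 2 and 1254 in replicate 1. The Tgfbr3 to Inha ratio was 8.02 in replicate 2 (6.84 to 9.45) and 88.4 in replicate 1 (52.6 to 162). Exons of Tgfbr3 share 297 of 6545 bases with Gm43422 on the same strand.

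In replicate 2 the order of levels was Tgfbr3, Acvr1, Fstl3, Inha, Acvr2a, Acvr1b, Acvr2b, Fst, Inhbb and Inhba. Counting intervals of Inha and Acvr2a overlapped there, as did those of each neighbouring pair among the last 4. In replicate 1 the order was Tgfbr3, Acvr2a, Acvr1, Fstl3, Fst, Acvr1b, Inhbb, Inha, Inhba and Acvr2b. There Fstl3 and Fst, Fst and Acvr1b, Inhbb and Inha, and Inhba and Acvr2b were neighbours with overlapping intervals. Tgfbr3 led and Acvr1 exceeded Acvr1b in both libraries, whereas Inha stood above Acvr1b in replicate 2 and below it in replicate 1.

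The libraries were compared gene by gene with a two-sided exact binomial test of the counts, which compares these libraries and not conditions. A gene was called at a Benjamini-Hochberg adjusted p under 0.05 and a fold of at least 2, with TMM-scaled library sizes and ratios of replicate 2 over replicate 1. Of 14358 genes whose counts in both libraries summed to 20 or more, 64.2% were called, 36.4% as higher and 27.8% as lower in replicate 2. Inhba had too few counts to enter. Of the other 9 members, 5 were called, 3 higher and 2 lower, a share near that background. When libraries were scaled by total counts instead, all log2 ratios moved up by 1.14, and 5 members were called higher and 1 lower, against 7770 higher and 566 lower among all genes.

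Inha and Fstl3 were higher in replicate 2. The scaled count ratio was 8.36 for Inha (4.84 to 15.6; exact binomial adjusted p = 3.59e-23) and 3.83 for Fstl3 (2.88 to 5.18; adjusted p = 1.14e-25). Acvr2b, with a count of 0 in replicate 1, had an exact interval for the ratio that began at 6.06 (adjusted p = 5.87e-08, exact binomial test). With replicate 1 taken at 3 counts, its ratio was 7.90. Fst and Acvr2a were lower in replicate 2, at ratios of 0.389 (0.261 to 0.572) and 0.224 (0.205 to 0.246), with exact binomial adjusted p-values of 7.13e-07 and 9.42e-280. Inhbb had a ratio of 1.07 (0.735 to 1.58). Acvr1b at 1.76, Acvr1 at 0.775 and Tgfbr3 at 0.753 had intervals that excluded 1 (1.41 to 2.22, 0.690 to 0.871 and 0.726 to 0.781) but missed the fold minimum. On the TPM scale, whose fixed sum also holds the mitochondrial RNA, Acvr1 and Tgfbr3 had higher levels in replicate 2. So did Fst, which was called lower. Several genes named below, such as Bmp2 and Id2, likewise had a higher TPM in replicate 2 and were called lower, so TPM pairs do not give the direction of a call.

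These ratios followed GC content. Over 14274 tested genes the log2 ratio correlated with transcript GC content at Pearson r = 0.826 and Spearman rho = 0.884, a description across genes of the same libraries. The median log2 ratio was -1.49 for genes with 40 to 45% GC, -0.52 for 45 to 50%, 1.17 for 50 to 55% and 3.39 for 55 to 60%. Of the 7 members above the median GC content of 49.8%, 3 were called higher. Of the 3 below it, Inhba was not tested, and the other 2, Fst and Acvr2a, were called lower. Shares of all genes called on each side of the median were not counted, so this split is no result about the members. That split pools the bases of all annotated transcripts of a gene, so longer transcripts weigh more. Weighted by transcript abundance, Inhba had 52.6% and Fst 51.4%, and the 3 members below the median on that measure were Acvr1, Acvr2a and Tgfbr3, so Fst was called lower from above the median. GC content comes from GENCODE M21, where the Fst transcript has 1851 bases, against 2337 as deposited. The main Acvr2b transcript has 2093 against 1696. M21 lists 6 transcripts for each of these genes, against 1 deposited for Fst and 2 for Acvr2b. Exons of Inhba cover 6390 bases in M21, against deposited transcripts of 1529 and 1957 bases. The GC values of Fst, Acvr2b and Inhba may therefore not describe the transcripts that were counted. The type II receptors printed above lie far apart, with 40.4% GC in Acvr2a and 59.0% in Acvr2b over the pooled bases of annotated transcripts.

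**Figure D2:**
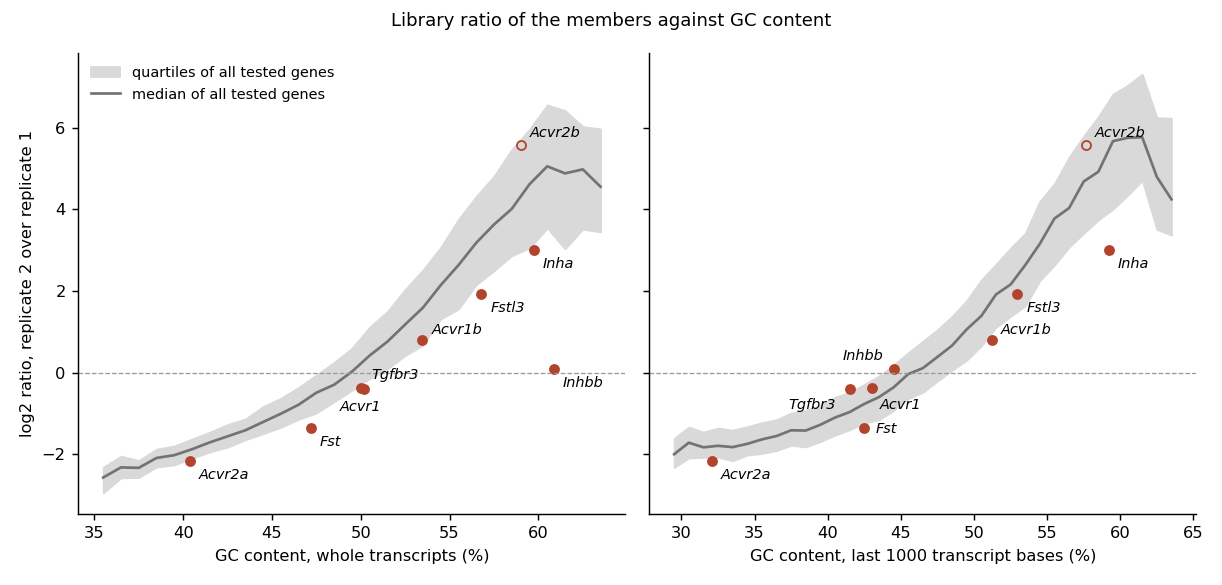
Log2 ratio of replicate 2 over replicate 1 against GC content of whole transcripts (left) and of the last 1000 transcript bases (right), in percent, for the 9 tested members (points) and for all tested genes (line for the median, grey band for the quartiles, per 1 percentage point of GC). Inhbb lies far below the band on the left, at 60.9% GC and a log2 ratio of 0.10, and near its upper edge on the right, at 44.5% GC. Acvr2b, open, had a count of 0 in replicate 1, so its height depends on the prior count of 0.5.

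With the trend on whole-transcript GC removed, 25.8% of 14274 genes were called, 13.5% higher and 12.4% lower. Of the 9 members, 3 were then called, and all 3, Inha, Fstl3 and Inhbb, were lower in replicate 2. Inha had a log2 ratio of 3.02 before and -1.46 after removal (adjusted p = 0.00534, exact binomial test), and Fstl3 had 1.93 and -1.31 (adjusted p = 7.60e-08). No member was called higher. At an unadjusted p under 0.05 with no fold minimum there were 0 higher and 8 lower members, beside 31.2% of all genes higher and 34.1% lower. Acvr2a, at -2.16 before removal and -0.30 after, no longer met the fold minimum. Fst did not either, at -1.35 and -0.78, but with the abundance-weighted GC trend removed it had -2.03 and was called lower (adjusted p = 1.56e-13, exact binomial test). Under total counts Fst had -0.22 and was not called. Acvr2b had an adjusted p of 0.648 with the whole-transcript trend removed. With the whole-transcript trend removed, the higher and lower calls of the 7 chromaffin cell markers went from 5 and 0 to 3 and 3. Endothelium went from 4 and 1 to 0 and 0, and macrophages from 4 and 0 to 2 and 0. Adipocytes went from 3 and 0 to 5 and 0, and skeletal muscle from 4 and 0 to 3 and 0. Cortex went from 3 and 1 to 2 and 0, and capsule and stroma from 2 and 2 to 1 and 2. Without replicates of each library these tests cover counting error only.

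Inhbb departed most from the trend. Its log2 ratio was 0.10 before and -4.81 after removal (adjusted p = 2.38e-45, exact binomial test), and of 11897 genes whose counts summed to 100 or more, 29 had a lower value. Among 285 such genes within 1 percentage point of its GC content, 5 were lower. The Inhbb transcript is uneven in composition. Its 1162 bases upstream of the coding sequence had 75% GC, the 1233 coding bases 64.7% and the 1860 bases downstream 49.5%, and windows of 500 bases ranged over 35 to 81.8%. Inha, at 1475 bases, was more even, with windows between 55.4 and 65.2%. Unevenness was not particular to Inhbb, since windows ranged over 24 to 65.6% in Tgfbr3, 33.6 to 68.8% in Fst and 29.2 to 63.2% in Acvr2a. Those 3 members had log2 ratios of -0.72, -0.78 and -0.30 with the whole-transcript trend removed.

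The trend was also fitted on the last 1000 bases of the transcripts, a choice made after the Inhbb value was seen. The log2 ratio correlated with this measure at r = 0.822 over all tested genes. With this trend removed, 26.4% of 14311 genes were called, 13.5% higher and 12.9% lower, and of the members 1 was called, which was Inha. Inhbb, with 44.5% GC in its last 1000 bases, had a log2 ratio of 0.43 (adjusted p = 0.170, exact binomial test). Inha had -2.20 (adjusted p = 3.89e-05, exact binomial test) and Fstl3 -0.54, under the fold minimum. At an unadjusted p under 0.05 with no fold minimum, 2 members were higher and 5 lower, against 0 and 8 with the whole-transcript trend removed. The share of all genes at that threshold was not taken for the last 1000 bases. Inha was thus higher in replicate 2 as counted and lower with either GC trend removed.

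**Figure D3:**
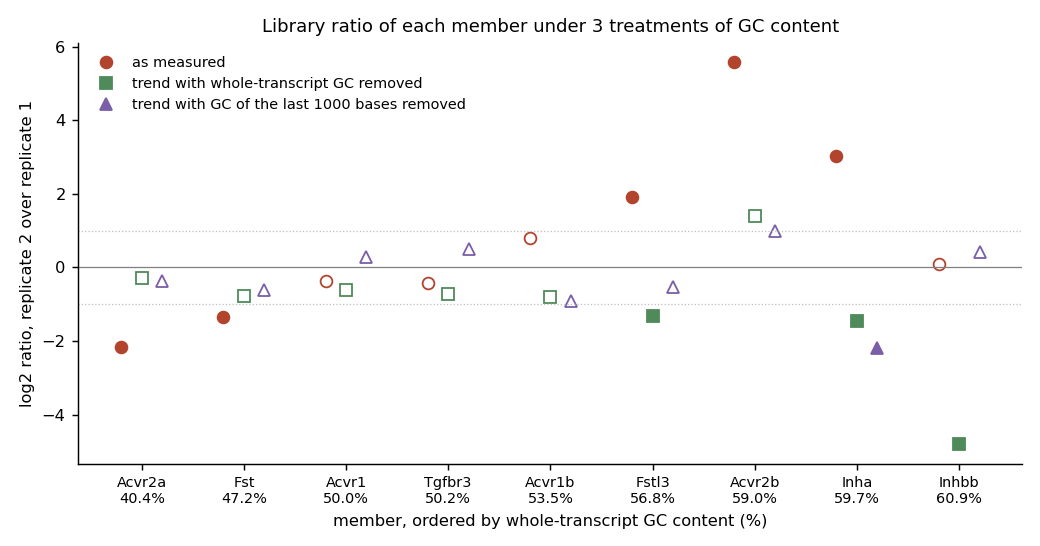
Log2 ratio of replicate 2 over replicate 1 for the 9 tested members, ordered by whole-transcript GC content, as measured (circles), with the whole-transcript GC trend removed (squares) and with the trend of the last 1000 bases removed (triangles). Filled symbols were called. Dotted lines mark a fold of 2. Inha is filled in all 3 settings, at 3.02, -1.46 and -2.20, and the other fillings depend on the setting.

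Transcript shares within a member also differed between libraries. Fstl3 was assigned mostly to its coding transcript ENSMUST00000020575.4 in replicate 2, at 90.1% of the gene's transcripts and 281.02 estimated counts, against 16.9% and 11.92 counts in replicate 1. The non-coding ENSMUST00000168798.1 took 3.83% and 9.2 counts in replicate 2 and 83.1% and 45.08 counts in replicate 1. The coding transcript had a GC content of 57.1% and the non-coding one 55.2%. A leading transcript that differs between the libraries was found in 34.7% of 8227 genes with at least 2 transcripts and 20 counts in each library, so Fstl3 is 1 of 2854.

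Acvr1 kept its leading transcript. ENSMUST00000112599.3, of 47.9% GC, held 67.3% in replicate 2 and 93.8% in replicate 1. The transcript ENSMUST00000056376.7, of 56.3% GC, held 17.4% and 93.04 counts in replicate 2 and a count of 0 in replicate 1. Acvr2b was divided between ENSMUST00000165044.1 at 61.5% and ENSMUST00000035093.10 at 38.5% in replicate 2. Tgfbr3 had 99.6% on 1 transcript in both libraries. Acvr2a, like Inhba, had all its counts on 1 of 2 listed transcripts. Inha, Inhbb, Acvr1b and Fst have a single transcript in the deposited tables, so their share was fixed.

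**Figure D4:**
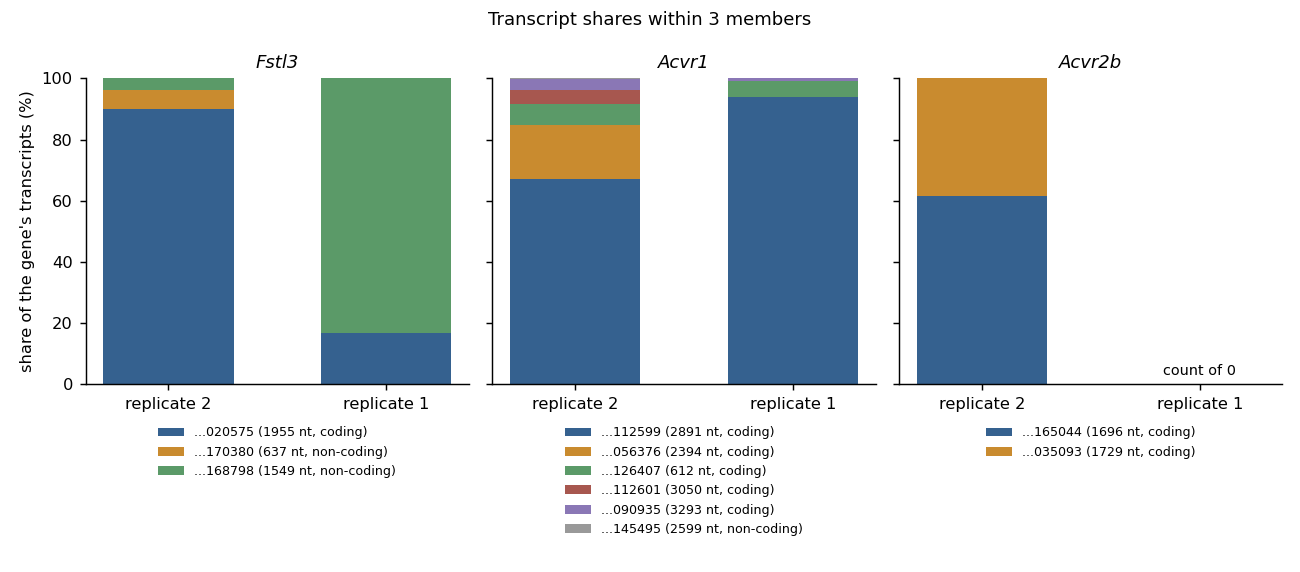
Share of each transcript within Fstl3, Acvr1 and Acvr2b in percent, with replicate 2 left of replicate 1 and colours for the transcripts, named by the last digits of their Ensembl identifiers. The coding Fstl3 transcript holds 90.1% in replicate 2 and 16.9% in replicate 1, and Acvr2b has a count of 0 in replicate 1.

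Other ligands of the family had a median GC content of 53.3% among those tested, against 53.5% for the members. Of 16 listed, 8 were tested, and 5 were called higher and 2 lower, with a median log2 ratio of 2.01 against 0.10 over all tested genes and over the members. With the whole-transcript GC trend removed, none were called higher and 3 lower, with a median of -0.67 against -0.03 over all tested genes and -0.78 over the members. For this and the following lists, the shares over all tested genes were 36.4% higher and 27.8% lower. With the whole-transcript GC trend removed they were 13.5% and 12.4%. Calls of the lists with the last-1000-base trend removed were not counted. Bmp7, a bone morphogenetic protein, had 25.72 TPM in replicate 2 and 1.67 TPM in replicate 1. Tgfb1, which encodes transforming growth factor beta, had 14.81 and 0.56 TPM. Bmp2 had 7.26 and 4.62 TPM and was called lower, at a log2 ratio of -1.19. Tgfb2 had the lowest ratio of the called ligands, at a log2 ratio of -1.51, with 0.68 and 0.54 TPM. The other activin beta subunits Inhbc and Inhbe, and Nodal, had a count of 0 in both libraries.

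Other receptors had a lower median GC content, 44.3%. Of 8 tested, 2 were called higher and 5 lower, with a median log2 ratio of -1.80, and 1 and 1 with the GC trend removed, with a median of -0.31. Bmpr2, a type II receptor that also serves bone morphogenetic proteins, had 27.80 TPM in replicate 2 and 31.37 TPM in replicate 1. Bmpr1a, a type I receptor, had 35.46 and 35.21 TPM. Acvr1c, also a type I receptor, had 5.40 and 4.51 TPM, beside 5.01 and 0.79 TPM for the member Acvr1b. The TGF-beta receptors had 22.23 and 19.84 TPM (Tgfbr1) and 45.92 and 14.96 TPM (Tgfbr2). Bmpr1b had the lowest ratio of the called receptors, at a log2 ratio of -2.59, with 0.10 and 0.14 TPM. Eng, the endothelial co-receptor related to Tgfbr3, had 62.40 and 0.53 TPM, a log2 ratio of 4.96 that was 1.36 with the GC trend removed and called higher both ways.

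The SMAD genes, which carry the signal to the nucleus, were all tested. Of 8, 2 were called higher and 1 lower, with a median log2 ratio of -0.69, and 0 and 4 with the GC trend removed, with a median of -1.04. Over all tested genes the shares were 36.4% and 27.8%, and 13.5% and 12.4% with the GC trend removed. Of the activin-responsive members, Smad2 had 36.74 TPM in replicate 2 and 20.78 TPM in replicate 1, and Smad3 had 16.13 and 2.06 TPM. Their shared partner Smad4 had 36.81 and 13.16 TPM. The SMADs of bone morphogenetic proteins had 10.19 and 4.60 TPM (Smad1), 21.72 and 9.65 TPM (Smad5) and 17.19 and 10.62 TPM (Smad9), and Smad9 was called lower, at a log2 ratio of -1.15. Smad6, an inhibitory SMAD, was called higher at a log2 ratio of 1.03, stood at -3.73 with the whole-transcript GC trend removed and at -0.81, not called, with that of the last 1000 bases removed.

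Of 16 modulators, 11 were tested, and 4 were called higher and 4 lower, against 2 and 3 with the GC trend removed (median log2 ratio 0.35 and -0.26). Furin, a protease that cleaves precursors of the family, had 74.80 TPM in replicate 2 and 0.60 TPM in replicate 1 and was called higher both ways, at log2 ratios of 4.83 and 1.16. Pcsk6, a related protease, had 9.65 and 0.63 TPM, and Fstl1, a follistatin-like gene, had 25.56 and 6.42 TPM. The SMAD-binding repressors had 37.15 and 12.22 TPM (Ski) and 11.76 and 8.74 TPM (Skil, the lowest called modulator at a log2 ratio of -1.51). The ubiquitin ligases had 11.11 and 1.16 TPM (Smurf1) and 20.51 and 13.85 TPM (Smurf2). Zfyve9, which anchors SMADs at the membrane, had 17.89 and 11.77 TPM, and Lemd3, a SMAD-binding protein of the nuclear membrane, had 10.49 and 6.54 TPM. Of 8 SMAD target genes, 2 were called higher and 2 lower, against 1 and 3 with the GC trend removed (median 0.26 and -0.77). Id2, which bone morphogenetic proteins induce, had 424.24 TPM in replicate 2 and 238.23 TPM in replicate 1 and was called lower, at a log2 ratio of -1.02. Its relatives had 83.73 and 9.08 TPM (Id1) and 59.17 and 1.44 TPM (Id3, the highest called target at a log2 ratio of 3.98). Ccn2, a connective tissue growth factor, had 55.69 and 19.65 TPM, and Pmepa1, an inhibitor of TGF-beta signalling, had 17.93 and 2.78 TPM. Of 8 genes typical of gonads, 2 had enough counts to test, with 1 higher and 1 lower, and both lower with the GC trend removed. They were Gata4, at 1.29 TPM in replicate 2 and 0.39 TPM in replicate 1, and Wt1, at 0.67 and 0.40 TPM, both transcription factors.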

How the data were processed

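The labels put both libraries in 1 group as technical replicates of 1 biological sample. Expected counts, estimated per gene and transcript and not always whole, stand in the deposited tables, and TPM, FPKM and the percent share of each transcript are named per the file headers. Posterior mean TPM in the deposited tables was treated as a score, and effective lengths come from the authors. Per the deposited notes, files use mm10 and GENCODE annotation M4. The aligner is not given in the sources used here, nor is the counting program.

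Here 69691 rows were read, and 26345 that are no Ensembl gene, all at 0, were left out. Counts were rounded and TMM-scaled (edgeR 4.0.16), with DESeq2 1.42.0 size factors as an alternative. Log2 ratios add a prior count of 0.5. Intervals are 95%, Poisson for levels and Clopper-Pearson for ratios, and the floor is 3 counts per library. With 1 library against 1, no dispersion can be estimated, so the exact binomial test (scipy 1.17.1) treats counting error as the only spread. GENCODE M21 on GRCm38, a later release than that of the tables, gave GC content. Its trend was fitted by lowess with a span of 0.3 (statsmodels 0.14.6). Coding sequences were aligned with MAFFT 7.526, and copies of mitochondrial genes were found with BLAST+ 2.17.0. The steps were tested on simulated counts. Of 126 list entries 125 matched, and Gdf1 did not. All members are named, and from each list genes with a mean of at least 5 TPM, otherwise the 2 highest, and the called extremes. Genes at 0 in both libraries, overlapping neighbours and Acvr1c, whose mean was under 5 TPM, were named after their values were seen. The members and lists were chosen with earlier results of these data known.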

Additional observations from a re-analysis of the deposited data

How the results depend on the processing

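The number of members at 1 TPM or more in both libraries, 5, became 8 with TPM rescaled over nuclear genes and 3 at a minimum of 5 TPM, and taking each library alone gave 5 to 9. The 5 calls between libraries became 3 with the GC trend removed and 3 with GC and length trends removed. They became 1 with the trend of the last 1000 bases removed (added after seeing the data) and 3 at a fold of 4. Without a fold minimum 8 of 9 tested members were called, a share near that of all genes, 12592 of 14358. Shares over all genes were not taken at a fold of 4. Nor were they with the GC and length or the abundance-weighted GC trend removed. The 3 higher calls became 5 under total counts and 0 with the GC, GC and length, abundance-weighted GC or last-1000-base trend removed. The 2 lower calls became 1 under total counts, 4 with the abundance-weighted GC trend removed, 1 with the last-1000-base trend removed, 4 without a fold minimum and 1 at a fold of 4. Signs changed with scaling and with GC removal. Under total counts Acvr1 had 0.77 and Tgfbr3 0.73, both under the fold minimum and both negative as reported, and they had 0.28 and 0.50 with the last-1000-base trend removed. Acvr1b, 0.81 as reported and not called, had -0.91 to -0.58 over the 4 GC removals, also not called. Under the GC, GC and length, and abundance-weighted GC trends, log2 ratios were -1.46, -1.72 and -1.52 for Inha, -4.81, -4.61 and -4.89 for Inhbb, and -1.31, -1.47 and -1.43 for Fstl3. With the last-1000-base trend removed, Inha had -2.20 and Fstl3 -0.54, and Acvr2b had -0.27 with the abundance-weighted trend removed. The log2 ratio of Inha to Inhbb, 1.34 on average, was -0.13 without replicate 2 and 2.81 without replicate 1. The cause was not tested. DESeq2 size factors, TMM without mitochondrial genes, no count filter, a summed count of 100 and length-trend removal each kept the member counts within 1.5 times of those reported. No paired analysis was possible because both libraries belong to 1 group. Counts of 0 to 14 in replicate 1 limit what can be said of Inha, Inhba and Acvr2b.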
